A study of Mus musculus with 26 samples.

Results

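The acetylated histone mark H3K27ac was compared between 2 samples of permissive cells and 2 samples of control cells of the mouse cochlea after 48 h in culture. The peaks of the 4 lists on chromosomes 1 to 19 and X were merged wherever they shared at least 1 base, which gave 201080 regions, against 232378 when the 2 nonpermissive H3K27ac lists of the series were merged in as well. These 4 samples are part of 26 in the series, of which 6 are H3K27ac samples. Cochleae of postnatal day 1 mice were explanted, and cells were marked by a TdTomato reporter recombined by Lfng-CreER, a Cre expressed from Lfng, which in the cochlea is active mainly in supporting cells. Control cells carried TdTomato and came from explants given the solvent DMSO. Permissive cells came from explants given DAPT, an inhibitor of gamma-secretase, and were sorted for TdTomato together with a GFP reporter of Atoh1, whereas nonpermissive cells, also from DAPT explants, carried TdTomato alone. All groups therefore share the Lfng-CreER mark, the culture medium with EGF and FGF, and the trypsin dissociation. The Atoh1 reporter was part of the permissive sort, so signal at Atoh1 is not independent of how the cells were chosen. The labels do not say how many animals were pooled or whether replicates came from separate animals.

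H3K27ac is deposited by the acetyltransferases CBP and p300 on nucleosomes next to active promoters and enhancers. In CUT&RUN an antibody tethers a nuclease to the marked chromatin, and the released fragments are sequenced. Notch signalling keeps supporting cells from becoming hair cells: the cleaved receptor enters the nucleus, joins the DNA-binding protein RBPJ and switches on repressors of the Hes and Hey families, which hold down Atoh1, the transcription factor that starts hair cell development. Gamma-secretase makes the receptor cleavage, so DAPT releases this block, and some supporting cells of the newborn cochlea then convert towards hair cells. The comparison asks where the active chromatin of the converting cells differs from that of supporting cells given DMSO.

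A region found in both permissive lists and in neither control list is called permissive-only here, and one found in both control lists and in neither permissive list control-only. The 250 bases before a gene start are shown as examples for 4 genes where this stretch overlapped such a region. They do not stand for the sequence of a class. They are RefSeq sequence of build GRCm38.p6, printed 5′ to 3′ on the strand of the gene. Barhl1, chr2:28916669-28916918, minus strand, and Scn11a, chr9:119825457-119825706, minus strand, overlapped permissive-only regions. Hes5, chr4:154960673-154960922, plus strand, and Fabp7, chr10:57784673-57784922, plus strand, overlapped control-only regions. Capitals mark the motifs found by the search described after the sequences.
Barhl1: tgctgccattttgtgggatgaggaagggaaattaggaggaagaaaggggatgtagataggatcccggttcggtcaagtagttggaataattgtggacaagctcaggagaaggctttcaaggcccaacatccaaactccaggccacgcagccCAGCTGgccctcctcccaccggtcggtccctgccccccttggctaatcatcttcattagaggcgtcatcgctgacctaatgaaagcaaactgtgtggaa
Scn11a: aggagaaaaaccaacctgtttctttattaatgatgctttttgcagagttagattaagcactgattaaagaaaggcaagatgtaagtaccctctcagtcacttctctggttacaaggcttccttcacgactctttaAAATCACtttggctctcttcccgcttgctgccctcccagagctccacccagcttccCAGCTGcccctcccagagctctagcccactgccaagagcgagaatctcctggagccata
Hes5: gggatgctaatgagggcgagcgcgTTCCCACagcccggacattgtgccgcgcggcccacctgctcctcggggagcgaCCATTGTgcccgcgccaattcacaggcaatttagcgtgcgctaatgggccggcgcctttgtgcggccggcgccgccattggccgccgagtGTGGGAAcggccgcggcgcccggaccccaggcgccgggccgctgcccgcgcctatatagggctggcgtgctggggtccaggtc
Fabp7: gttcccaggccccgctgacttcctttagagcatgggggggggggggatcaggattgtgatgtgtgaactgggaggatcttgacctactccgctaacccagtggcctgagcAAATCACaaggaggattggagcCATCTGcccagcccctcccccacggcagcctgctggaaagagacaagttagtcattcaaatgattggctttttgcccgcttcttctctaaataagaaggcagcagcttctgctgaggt

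The Barhl1 window held the E-box CAGCTG 99 bases before the start, and the Scn11a window held a CAGCTG 59 bases before the start with the GFI1 core AAATCAC 115 bases before it. The E-box is the kind of site that ATOH1 and related bHLH proteins bind. The Hes5 window held the RBPJ site GTGGGAA 226 and 83 bases before the start, on opposite strands, and the SOX site CCATTGT 173 bases before it. The control-only region covered only part of this window, and the RBPJ site at 83 bases lay outside it. The Fabp7 window held CAGATG, on the other strand, 118 bases and AAATCAC 140 bases before the start. Other windows differed from these examples. Those of Myo7a and Tjap1 overlapped permissive-only regions and held RBPJ sites. None of the motifs searched was in the windows of Atoh1, Dll1 and Kcna10 (permissive-only) or Gjb6 and Cryl1 (control-only). Such motifs were also common in other windows, and the shares in the classes lay near those of all windows for most of them. Both strands were searched for every motif. CAGCTG on either strand was in 11.8% of 17274 windows, in 13.3% of the 534 that overlapped a permissive-only region and in 12.6% of the 103 that overlapped a control-only region. The RBPJ site was in 5.34% of all windows, 5.24% of the permissive-only ones and 5.83% of the control-only ones. The GFI1 core was in 2.51%, 2.06% and 0.971%, and CAGATG in 12.4%, 11.2% and 7.77%, in the same order. The SOX site was in 2.39%, 1.69% and 4.85%, the last being 5 of 103 windows. Of all windows 3.54% held the RFX half-site GTTGCCA, 11.5% the TEAD core GGAATG, 6.27% the AP-1 site TGANTCA and 0.949% the POU4 core ATAATTAA. In the permissive-only windows these shares were 3.56%, 9.55%, 3.93% and 0.375%, and in the control-only windows 2.91%, 8.74%, 5.83% and 0.971%. These windows cover only starts, and sequence at the regions away from starts was not used here.

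The 4 lists differed in size before any comparison. Control lists 1 and 2 held 57698 and 55254 peaks covering 26.9 and 24.7 Mb, permissive list 2 held 72280 peaks covering 27.1 Mb, and permissive list 1 held 114527 peaks covering 87.6 Mb. Median peak widths were 359 and 331 bases in the control lists, and 516 and 299 bases in permissive lists 1 and 2. Peaks with a deposited −log10 q of at least 5 numbered 5622 and 5757 in the control lists, 42203 in permissive list 1 and 2448 in permissive list 2. Permissive list 1 thus stood apart as a long list of wide, strong peaks, and nonpermissive list 1 had the same form (93854 peaks, 79.2 Mb). Permissive list 2 was long but shallow, with 55.6% of its peaks at a single fold enrichment of 3.19. The control lists shared 21.5% of the bases that either covered, and the permissive lists 11.8%, where 44.5% of the bases of permissive list 2 lay inside permissive list 1. Read totals of these libraries are not in the peak lists, so depth is unknown. Markers of the labelled cell types were looked for first: all 4 lists had peaks at the supporting cell genes Sox2, Slc1a3 and Gjb2, so these genes do not separate the groups by presence, and both permissive lists and neither control list had peaks at Atoh1. With 2 samples per group an exact permutation test could not go below a two-sided p of 0.333, so presence and fold enrichment are described without a test, and a missing peak is not a measured zero.

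Most regions were private to 1 list. Of the 201080 regions 154965 (77.1%) were in exactly 1 list, 72802 of them in permissive list 1 alone and 39270 in permissive list 2 alone. Permissive-only regions numbered 9390 (4.67% of all regions) and control-only regions 4485 (2.23%), and 9235 regions were in all 4 lists. The plot of regions by list combination shows these classes. When each list was held to its 55254 strongest peaks, the classes came to 6000 permissive-only and 6089 control-only regions, so the larger number of permissive-only regions was not seen with lists of equal length. Of the 9390 permissive-only regions 5951 overlapped a permissive-only region of the equal-length lists, and of the 4485 control-only regions 4375 overlapped a control-only one. A class asked of 1 list only was far larger: without permissive list 1 there were 53262 permissive-only and 10177 control-only regions, and without permissive list 2 there were 82717 permissive-only regions. Without control list 1 or 2 there were 26245 and 27441 control-only regions. Counts of regions therefore rest on having both lists of a group.

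**Figure D1:**
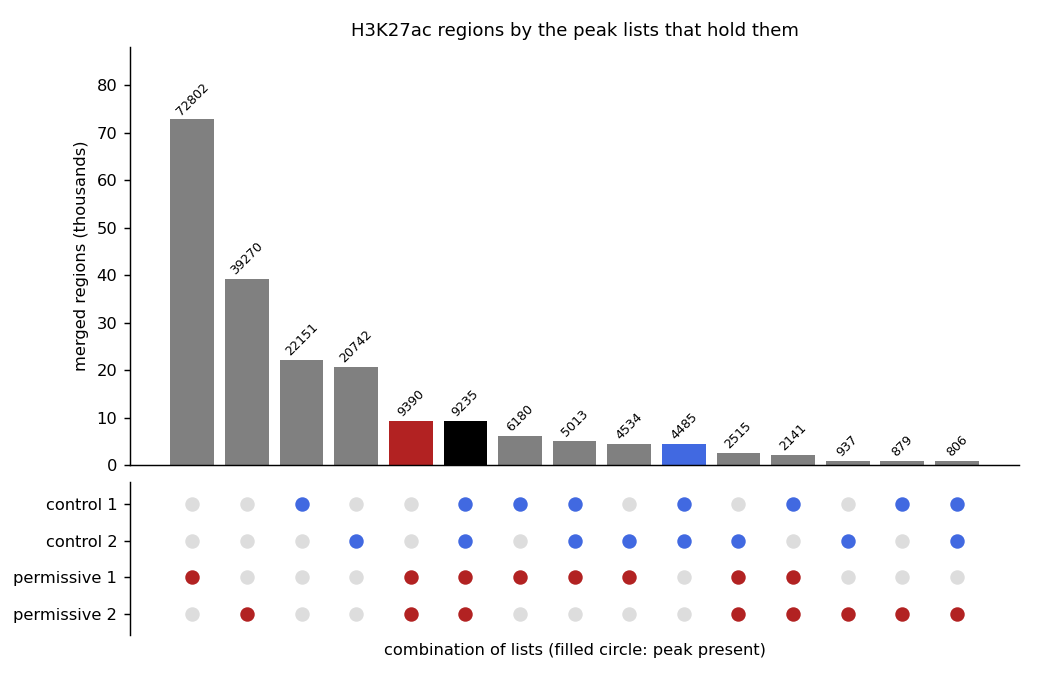
Number of merged H3K27ac regions (vertical axis, scaled as labelled; counts above bars) for each combination of the 2 control and 2 permissive peak lists, marked by filled circles below. The red bar holds the 9390 permissive-only regions, the blue bar the 4485 control-only regions and the black bar the 9235 regions in all 4 lists; the tallest bars are regions of 1 list.

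The classes differed in width and place. Regions in all 4 lists were the widest, with a median of 1729 bases, against 908 for permissive-only and 612 for control-only regions and 389 for all regions. They sat at promoters: 57.1% lay within 1 kb of the start of a protein-coding gene, compared with 13.6% of permissive-only, 7.83% of control-only and 8.76% of all regions. Both classes found in 1 group were mostly away from starts, with median distances of 23536 and 33133 bases to the nearest start. Regions wider than 3 kb numbered 462 among the permissive-only, none among the control-only and 1329 among those in all 4 lists. Most of the width came from permissive list 1, whose peaks covered a median of 836 bases of a permissive-only region, against 312 bases in permissive list 2.

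Atoh1 had the permissive-only region with the highest fold enrichment when the lower of the 2 permissive values was ranked. It spanned 9531 bases around the gene, chr6:64726402-64735932, with a fold enrichment over background of 31.4 in permissive list 1 and 11.2 in permissive list 2. Neither control list had a peak within the gene or the 50 kb on either side of it, whereas permissive lists 1 and 2 covered 26059 and 5702 bases there. Nonpermissive list 1 covered 2370 bases there and nonpermissive list 2 none. Open chromatin, measured by ATAC (insertion of the transposase Tn5), was present in this region in all 6 ATAC lists, the 2 control lists included. A further 3 permissive-only regions had Atoh1 as their nearest gene, at 11536, 66904 and 89560 bases from the start, and the region at 66904 bases had the largest value of the 4 in permissive list 1, 50.6, with 6.38 in permissive list 2.

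Pou4f3, a POU-domain factor that hair cells need to mature and survive, was nearest to 10 permissive-only regions, to no control-only region and to 1 region in all 4 lists. The strongest, chr18:42380771-42384601, lay 9996 bases from the gene with fold enrichments of 22.8 and 10.4. Unlike the Atoh1 region, it overlapped an ATAC peak in both permissive lists and in no control or nonpermissive list, and neither nonpermissive H3K27ac list had it. Within 50 kb of the gene the control lists covered 598 and 1145 bases, the permissive lists 28057 and 10204, and the nonpermissive lists 3310 and 922. At Atoh1 and Pou4f3 alike, both permissive values lay above all 4 others. Higher coverage in both permissive than in both control lists was common, at 8147 of 21631 protein-coding genes (37.7%), and the reverse was found at 743 (3.43%), so such separation at a single locus is given as a description.

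**Figure D2:**
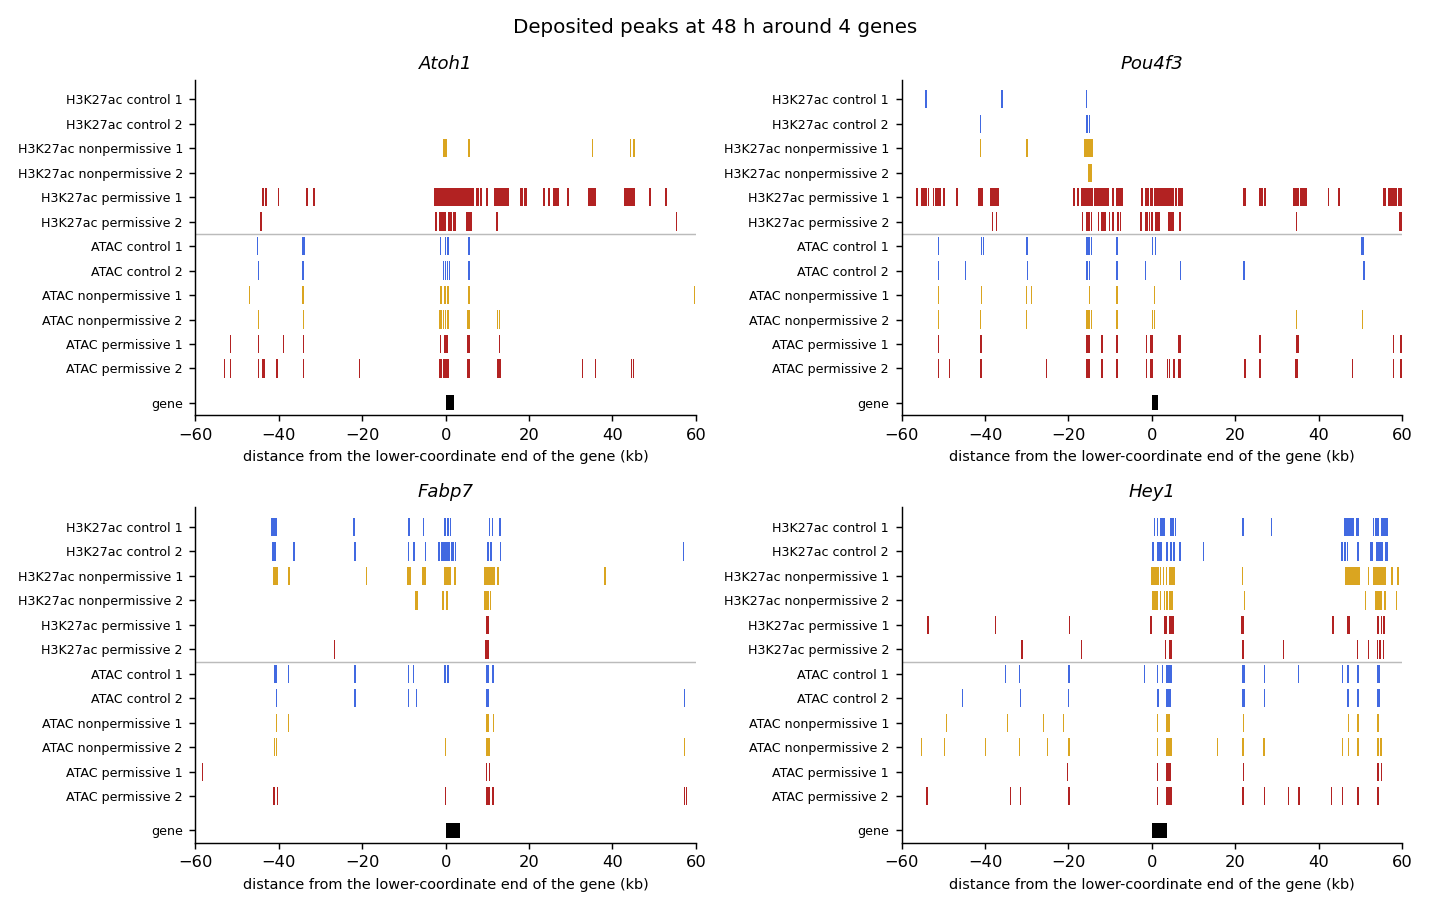
Deposited H3K27ac and ATAC peaks (coloured bars) of every list at 48 h around Atoh1, Pou4f3, Fabp7 and Hey1, by distance in kb from the lower-coordinate end of the gene (black bar), 60 kb to each side. Control lists are blue, nonpermissive lists yellow and permissive lists red; at Atoh1 the 2 control H3K27ac rows are empty while ATAC peaks are present in all 6 ATAC rows.

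The hair cell transcription factors carried permissive-only regions as a group. Of 27 genes listed, 24 were nearest to at least 1 permissive-only region and 6 to at least 1 control-only region, compared with 23.3% and 13.0% of all 21631 protein-coding genes (distances run to the gene start, or to the nearer end of a gene listed without strand). Over the 12225 protein-coding genes tested in RNA the shares were 33.1% and 18.1%. The median member of the list had 2 permissive-only and 0 control-only regions, where the median over all genes was 0 for both. With equal-length lists the counts were 20 and 7, against 17.1% and 15.9% of all genes, and with peaks of −log10 q of at least 5 they were 8 and 0, against 4.10% and 2.02%. Without permissive list 1, 26 members had a permissive-only region, but so did 62.6% of all genes, and without permissive list 2 these values were 25 and 55.0%. The covered bases given for a locus count the gene and 50 kb to each side. Summed over all protein-coding genes they came to 52481 and 52457 kb in the control lists and 161837 and 57067 kb in permissive lists 1 and 2, so permissive list 2 is the one of like extent to the control lists. Casz1, a zinc finger factor, had 16 permissive-only regions and no control-only region, and the LIM-domain protein gene Lmo1 had 10. Barhl1, a homeobox factor, had 5, of which 4 lay within 1 kb of a start, and its locus was covered over 1034 and 480 bases in the control lists, 12499 and 3740 in the permissive lists, and 803 and 0 in the nonpermissive lists. Gfi1, a repressor downstream of POU4F3, had 2 permissive-only regions, with 0 and 281 covered bases in control against 9799 and 3452 in permissive. Lhx3 had 3, with 0 and 281 covered bases in control against 23409 and 6057 in permissive. Insm1, which marks nascent outer hair cells, had 6, none within 1 kb of a start, with 428 and 0 covered bases in control against 13911 and 2365 in permissive.

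In RNA, where a gene passes at an adjusted p below 0.05 in edgeR's quasi-likelihood test over all genes, 15 of the 22 tested members rose in permissive cells and 1 fell. Over all 12225 protein-coding genes tested 5.86% rose and 7.41% fell, and the counts of the lists that follow stand beside these shares. Exceptions in H3K27ac were Tbx2 and Ikzf2, each with more control-only than permissive-only regions (4 against 2, and 3 against 1). Tbx2 is known to set the inner hair cell fate and Ikzf2 the functional maturation of outer hair cells. At Ikzf2 the control lists covered 5030 and 4224 bases and the permissive lists 2254 and 598. Rfx3 had 3 regions of each class.

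Genes of the hair bundle and of mechanotransduction followed the same pattern: 33 of 41 were nearest to a permissive-only region and 4 to a control-only region (27 and 4 with equal-length lists, 11 and 0 with −log10 q of at least 5). Atp2b2, the calcium pump of the bundle, had 9 permissive-only regions, 2 of them within 1 kb of a start. Myo7a, an unconventional myosin, had 5, with 2077 and 1175 covered bases in control against 16150 and 7634 in permissive and 1900 and 0 in nonpermissive. Cdh23, a tip-link cadherin, had 5, with 2686 and 5699 bases in control against 34129 and 11003 in permissive. Calb2, a calcium buffer, had 6. Fscn1, an actin bundler, was the member with a control-only and no permissive-only region. In RNA 29 of 40 tested members rose and 1 fell.

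Synaptic and excitability genes had permissive-only regions in 17 of 26 cases and control-only regions in 8 (15 and 8 with equal-length lists, 2 and 0 with −log10 q of at least 5). Scn11a, a sodium channel gene whose promoter is shown above, had 6 permissive-only regions and 302 and 281 covered bases in control against 9765 and 3789 in permissive. Nrxn3, a presynaptic adhesion gene, had 13 permissive-only and 3 control-only regions. Syt1, a synaptic vesicle calcium sensor gene, had 2 control-only regions and none permissive-only. In RNA 13 of 23 tested members rose and 1 fell. Kcnma1, the BK potassium channel, had 10 permissive-only regions while its RNA was at most 1.03 CPM (counts scaled to library size) in every permissive and control library, too low to be tested.

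The list of Notch ligands of nascent hair cells differed from the mixed list of Notch receptors, targets and associated genes. Of 7 ligands and modifiers expressed by nascent hair cells, 6 had a permissive-only region and 1 a control-only region, and these 2 counts were the same with equal-length lists and were 1 and 0 with −log10 q of at least 5. Dll1 had 10 permissive-only regions, one of them over a start, with 526 and 1534 covered bases in control against 21941 and 6186 in permissive. Dlk2 and Jag2 had 3 and 2. All 7 rose in RNA, but Dll4 did not pass edgeR's test without control library 1, control library 2 or permissive library 1 (adjusted p = 0.194, 0.113 and 0.0712). Of 17 Notch receptors, targets and associated genes, 13 had a control-only region and 8 a permissive-only region, with equal-length lists these counts were 13 and 4, and with −log10 q of at least 5 they were 2 and 1. None of the 17 rose in RNA and 10 fell. Hes1 had 4 control-only regions and 1 permissive-only region, and its locus was covered over 3059 and 3351 bases in control, 962 and 598 in permissive, and 7022 and 1391 in nonpermissive. Hey1 and Hey2 had 2 control-only regions each and no permissive-only region. At Hey1 the covered bases were 7569 and 6439 in control, 4613 and 3009 in permissive, and 9645 and 3853 in nonpermissive. At Hes1 and Hey1 both permissive values lay below both control values, which was so at 3 of the 17 genes. The reverse was seen at 1 gene, and the groups overlapped at the others. Over all 21631 protein-coding genes both permissive values lay below both control values at 3.43%, and the reverse was found at 37.7%. Without permissive list 1 the balance of the list turned: 10 members then had more permissive-only and 5 more control-only regions, against 4 and 9 with both lists. Without permissive list 2 these counts were 10 and 3. A permissive-only region then had to be in 1 list only, and the balance moved over all 21631 genes too. There the counts were 12337 and 1177 without permissive list 1 and 11337 and 704 without permissive list 2, against 4275 and 1858 with both.

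Hes5, a direct target of Notch signalling, had a region of each class. A narrow control-only region, chr4:154960391-154960768, ended 155 bases before its start with low fold enrichments of 3.04 and 3.09, and a permissive-only region lay 12329 bases away. Over the locus the control lists covered 1663 and 1784 bases and the permissive lists 1402 and 3048, so the groups overlapped. Lfng, the glycosyltransferase gene whose promoter drives the Cre, had 7 regions in all 4 lists and no control-only region, and its coverage overlapped between groups (30409 and 28772 bases against 38889 and 28788). Jag1, a ligand that supporting cells express and a member of the mixed list, had 1 control-only and 2 permissive-only regions.

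Supporting cell genes carried both classes. Of 25 Pillar and Deiters cell markers 12 had a control-only and 11 a permissive-only region, and among the 14 markers of inner phalangeal and border cells 9 and 7 genes did. With equal-length lists the permissive-only counts were 7 and 5, and the control-only counts 12 and 9. With −log10 q of at least 5 they were 3 and 2, and 2 and 4. Fabp7, a fatty acid binding protein gene of inner phalangeal cells, lay in the widest control-only region, chr10:57783848-57786838, of 2991 bases, and had 4 control-only regions in all. Its locus was covered over 4484 and 7698 bases in control, 612 and 1101 in permissive, and 9911 and 3060 in nonpermissive. In RNA 14 of 24 tested Pillar and Deiters markers fell and 1 rose, and 8 of 13 inner phalangeal markers fell and 1 rose. The gap junction genes Gjb2 and Gjb6, neighbours on chromosome 14, had 2 and 3 control-only regions. Gjb2 was covered over 6669 and 9412 bases in control, 765 and 1196 in permissive, and 16589 and 8551 in nonpermissive. Epha7, an ephrin receptor gene, had 8 control-only and 2 permissive-only regions. Slc1a3, a glutamate transporter gene, had 4 control-only, 2 permissive-only and 4 all-list regions.

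Prox1 and Fgfr3 stood out among these markers, with 8 and 7 permissive-only regions and no control-only region. Prox1 is a homeobox factor kept on in pillar and Deiters cells, and Fgfr3 the receptor that sets pillar cell fate. Prox1 was covered over 1328 and 0 bases in control, 31177 and 7623 in permissive, and 4526 and 1043 in nonpermissive. At Fgfr3 the values were 3962 and 3328, 23544 and 13343, and 6727 and 7310. Their RNA did not pass the test in either direction: Prox1 was at 418 and 239 CPM in control and 242, 126 and 88.1 CPM in permissive libraries, and Fgfr3 at 433 and 484 against 392, 384 and 446 CPM. At both loci both permissive lists covered more than both control lists, as at 37.7% of all genes, and the RNA levels of the groups overlapped. Cdh4, an inner phalangeal list member, had 14 permissive-only regions and 1 control-only region, with RNA that did not pass either (edgeR adjusted p = 0.102).

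Genes that mark the whole prosensory domain were largely shared. Of 26, 19 had a region in all 4 lists, compared with 30.0% of all protein-coding genes, 13 had a permissive-only and 14 a control-only region. With equal-length lists 12 and 18 did, and with −log10 q of at least 5 there were 5 and 7. Sox2 had 11 all-list, 4 control-only and 3 permissive-only regions. Sox9 had 5, 4 and 5, and Cdkn1b, an inhibitor of the cell cycle, 5 all-list and 2 control-only regions. Tecta, a tectorial membrane gene, had 3 all-list regions and 1 permissive-only region, and its RNA fell by 5.31 ± 0.56 (log2, SE; edgeR adjusted p = 9.37e-05). Its covered bases were 12995 and 15396 in control and 14387 and 6350 in permissive. Of 24 matrix and tectorial membrane genes 10 had a permissive-only and 10 a control-only region (8 and 13 with equal-length lists, 2 and 6 with −log10 q of at least 5), and 16 of the 22 tested fell in RNA and none rose. Thbs1, a matricellular protein gene listed without strand, was nearest to 10 control-only regions and to no permissive-only region. Among the 10 was one of the strongest, chr2:117780060-117782464, at 329412 bases from the nearer end of the gene (fold enrichments 9.13 and 10.8). Ccn2 had 4 control-only regions and 1 permissive-only region, and Col2a1, the fibrillar collagen of cartilage and tectorial membrane, 2 and none.

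Of 20 immediate early and AP-1 genes 16 had a control-only and 5 a permissive-only region, and both counts were the same with equal-length lists. With −log10 q of at least 5 only 2 had a control-only and 1 a permissive-only region. Without permissive list 2, 12 had a permissive-only region, against 55.0% of all genes, and without permissive list 1, 15 did, against 62.6%. These genes respond within minutes to growth factors, dissociation and other stimuli. Klf6 had 7 control-only regions and 1 permissive-only region. Fos had 2 control-only regions, one of them ending 1165 bases from its start with fold enrichments of 8.37 and 10.3, and 5 regions in all 4 lists. The covered bases at Fos were 8828 and 10020 in control and 6173 and 4713 in permissive. Of the 19 tested in RNA 6 fell and none rose. Fos was at 993 and 807 CPM in control and 243, 190 and 197 CPM in permissive libraries, a fall of 2.10 ± 0.40 (log2, SE; edgeR adjusted p = 0.00352). Of 16 Hippo and TEAD targets 7 had a permissive-only and 7 a control-only region, and with equal-length lists 7 and 10 did.

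Genes of every cell served as a reference. Of 18 housekeeping genes 11 had a region in all 4 lists, 2 had a permissive-only and 3 a control-only region. Both permissive lists covered more than both control lists at 8 of the 18, against 37.7% of all protein-coding genes. The reverse was found at none of the 18, against 3.43% of all. At Actb the covered bases were 1503 and 1535 in control against 5128 and 2441 in permissive. Of 15 cell cycle genes 4 had a permissive-only region (26.7%) and 1 a control-only region. The permissive-only share was 23.3% over all genes and 33.1% over the genes tested in RNA. With equal-length lists 2 and 2 of the cell cycle genes had such regions. Of 17 microtubule and cilium genes 7 had a permissive-only and 1 a control-only region, or 6 and 1 with equal-length lists. With −log10 q of at least 5 the counts were 0 and 1 for the cell cycle genes. For the microtubule and cilium genes they were also 0 and 1. Foxj1, the factor of motile cilia, is listed without strand and had a permissive-only region at an end of the gene (fold enrichments 8.27 and 3.98). Its RNA was at 0.187 and 0 CPM in control and 36.1, 39.5 and 53.8 CPM in permissive libraries.

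**Figure D3:**
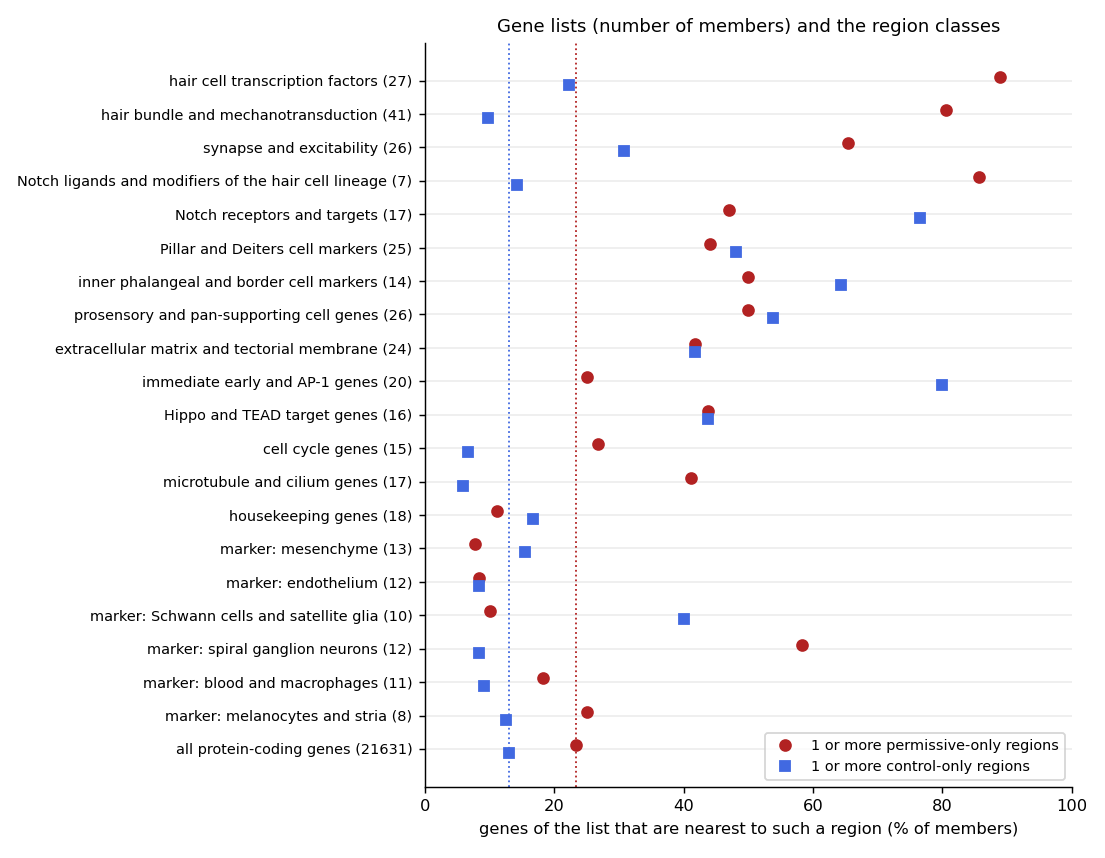
Share of the members of each gene list (number of members in brackets) that were the nearest gene of at least 1 permissive-only region (red circles) or control-only region (blue squares), in percent; dotted lines mark all 21631 protein-coding genes (23.3% and 13.0%). The 3 hair cell lists and the Notch ligands lie between 65.4% and 88.9% for permissive-only regions, and the Notch receptors and targets and the immediate early genes lie at 76.5% and 80.0% for control-only regions.

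Markers of other cochlear cell types were also counted, since the sorted cells could hold others. Mesenchyme, endothelium, blood and macrophage, and melanocyte and stria markers had a permissive-only region at 1 of 13, 1 of 12, 2 of 11 and 2 of 8 genes and a control-only region at 2, 1, 1 and 1. Schwann and satellite glia markers had 1 and 4 of 10, and the 4 with a control-only region were Mbp, Sox10, Erbb3 and Egr2, of which Sox10 is also on the prosensory list and Egr2 on the immediate early list. Schwann markers summed to 615 to 1210 CPM in control and 221 to 308 CPM in permissive libraries. Spiral ganglion neuron markers had a permissive-only region at 7 of 12 genes and a control-only region at 1. The 7 included Nefm, Elavl4, Nefl and Gata3, of which Gata3 is also on the prosensory list, whereas Neurog1, Neurod1, Tubb3, Elavl3 and Prph had none, and in RNA Neurog1 and Neurod1 were at 0 in all 5 libraries, which allows up to 0.561 to 1.21 CPM at 3 counts per library. Nefm, a neurofilament gene, had 7 permissive-only regions and was at 0.187 and 0 CPM in control and 16.9, 24.4 and 39.2 CPM in permissive libraries. The summed level of this list was 539 to 996 CPM in control and 311 to 480 CPM in permissive libraries. Mesenchyme markers summed to 641 and 2806 CPM in control replicates 1 and 2 and to 228 to 686 CPM in permissive libraries, while their loci were covered over 13.4 and 15.2 kb in the control lists and 18.1 and 12.9 kb in the permissive lists. What part such cells have in the differences was not tested. In bulk samples fewer cells of a type and less mark or RNA per cell cannot be told apart.

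The number of regions per gene reached 22. Dscaml1, a cell adhesion gene, was nearest to 22 permissive-only regions and to no control-only or all-list region. Foxp1, a forkhead factor, had 19, Tenm4, a teneurin adhesion gene, 18, Lrmda 17 and Casz1 16. The RNA of Dscaml1 was at 0.374 and 0 CPM in control and 107, 25.1 and 44.5 CPM in permissive libraries (edgeR adjusted p = 0.000781), whereas Foxp1 and Tenm4 did not pass the test (0.471 and 0.170), and Lrmda was at most 1.03 CPM. On the control side Zfp608 was nearest to 12 control-only regions, Cryl1 to 11, and Gm40514, Thbs1 and Pakap to 10 each. In RNA Zfp608 and Pakap did not pass (edgeR adjusted p = 0.397 and 0.452), and Gm40514 was not tested. Cryl1, which lies on chromosome 14 beyond Gjb6, fell by 3.28 ± 0.59 (log2, SE; edgeR adjusted p = 0.00238).

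Other strong permissive-only regions lay near or in Dgkh, Kcna10 and Tlcd3b. Kcna10, a potassium channel gene, had one 3179 bases from its start, chr3:107175483-107179964, with fold enrichments of 22.8 and 10.4, and RNA at 0 CPM in both control libraries and 21.0, 60.2 and 29.5 CPM in permissive libraries. The widest permissive-only region, chr10:115552696-115564074, of 11379 bases, lay inside Lgr5, a receptor gene of supporting cells, although the nearest start was that of A930009A15Rik. It had fold enrichments of 24.1 and 4.78, and both nonpermissive H3K27ac lists had a peak in it. Lgr5 RNA did not pass the test (303 and 203 against 275, 178 and 172 CPM).

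The strongest control-only regions were near Asrgl1, P4ha3, Thbs1 and Zfp687 and within Kcnn3 and Rab11fip4. The Asrgl1 region, chr19:9142169-9144440, had fold enrichments of 12.6 and 10.3, was in both nonpermissive lists, and had ATAC peaks in the 4 control and nonpermissive lists and in neither permissive list. The region inside P4ha3, a collagen prolyl hydroxylase gene, had the same ATAC pattern, and P4ha3 RNA was at 156 and 50.5 CPM in control and 0.206, 4.02 and 4.04 CPM in permissive libraries (edgeR adjusted p = 0.00103). All 6 of the strongest control-only regions were in both nonpermissive lists, whereas none of the 6 strongest permissive-only regions was in both.

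That contrast held over the classes. Of the control-only regions 45.6% were in both nonpermissive H3K27ac lists and 12.7% in neither, and of the permissive-only regions 8.71% were in both and 63.4% in neither. Over all regions 12.2% were in both and 66.0% in neither, and of the regions in all 4 lists 87.2% were in both. By single list, control-only regions overlapped nonpermissive list 1 in 84.7% and list 2 in 48.1% of cases, and permissive-only regions in 33.4% and 11.9%. The shares for the permissive-only regions were thus close to those of all regions, which were 32.2% and 14.0%.

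Open chromatin also differed between the classes. Permissive-only regions overlapped an ATAC peak in 51.9% and 76.8% of cases in permissive lists 1 and 2 and in 42.4% and 32.5% in the control lists. Control-only regions did so in 17.3% and 44.3% in the permissive lists and in 67.1% and 54.1% in the control lists. Over all regions the shares were 17.7% and 33.5% in the permissive lists and 25.9% and 20.1% in the control lists. Both classes thus lay above all regions in every one of these lists, except control-only regions in permissive list 1. An ATAC peak in both permissive and in neither control list was found at 1682 permissive-only regions (17.9%), against 3.22% of all regions and 0.245% of control-only regions. The reverse, an ATAC peak in both control and in neither permissive list, was found at 725 control-only regions (16.2%), against 1.93% of all regions and 0.607% of permissive-only regions. Conversely 2571 permissive-only regions (27.4%) had an ATAC peak in both control lists without an H3K27ac peak there, as at Atoh1. Over all regions 17.5% had an ATAC peak in both control lists. No ATAC list had a peak at 17.6% of permissive-only and 21.1% of control-only regions, against 56.3% of all regions and 1.36% of those in all 4 lists.

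**Figure D4:**
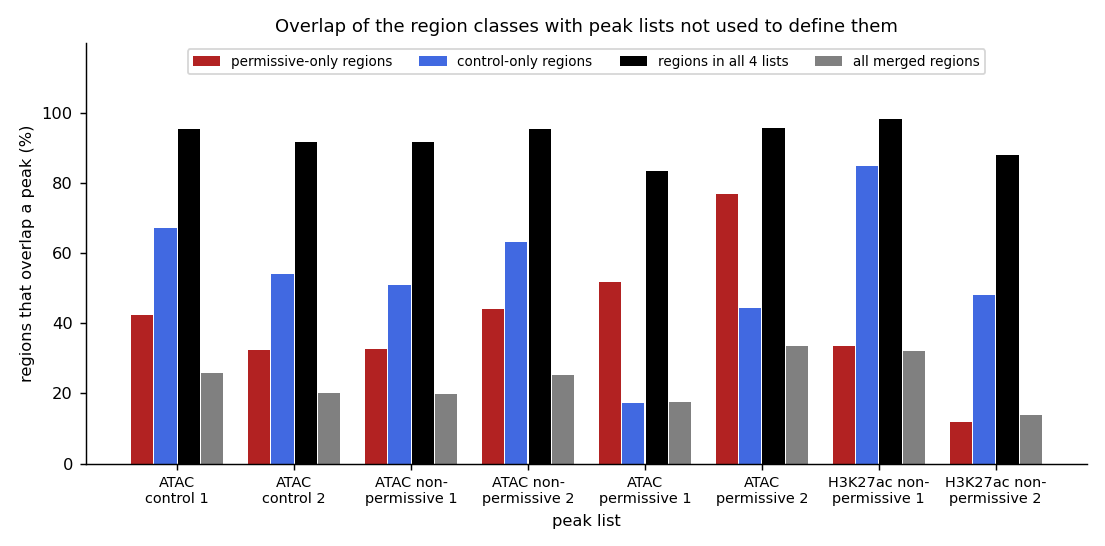
Percent of permissive-only, control-only and all-list regions and of all merged regions that overlapped a peak by at least 1 base in each of the 6 ATAC lists and the 2 nonpermissive H3K27ac lists at 48 h, none of which defined the classes. Control-only regions (blue) exceed permissive-only regions (red) in every control and nonpermissive list, and the order is the reverse in the 2 permissive ATAC lists.

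RNA of the same sorts was available for 2 control and 3 permissive libraries, and it was set beside the regions through the nearest protein-coding gene. RNA totals were 2576473 to 4896374 expected counts per library. The shares over all tested protein-coding genes were 5.86% that rose and 7.41% that fell (edgeR, adjusted p below 0.05 over all 13411 genes). Among the 4050 tested genes nearest to a permissive-only region 467 rose (11.5%) and 274 fell (6.77%). Among the 2212 nearest to a control-only region 71 rose (3.21%) and 466 fell (21.1%). Where a gene had regions of the permissive-only class alone, 13.6% rose and 3.08% fell, and of the control-only class alone 1.04% rose and 24.7% fell. Of 7023 genes near neither class 3.37% rose and 4.96% fell. Leaving out control RNA library 1 brought the counts near permissive-only regions to 276 and 166 and those near control-only regions to 38 and 286, and leaving out control RNA library 2 brought the genes that rose to 294 and 31. The excess of risen over fallen genes near permissive-only regions was seen only with both permissive H3K27ac lists. Without permissive list 1, 625 of 9081 genes rose (6.88%) and 769 fell (8.47%). Without permissive list 2, 630 of 8874 rose (7.10%) and 639 fell (7.20%). A class asked of 1 permissive list took in most of the 12225 tested protein-coding genes. Why its shares differed from those with both lists was not tested. Near control-only regions more genes fell than rose when either control list was left out. Without control list 1, 752 of 6338 tested genes fell (11.9%) and 284 rose (4.48%). Without control list 2, 744 of 6239 fell (11.9%) and 282 rose (4.52%). The fallen share was thus lower than the 21.1% with both control lists. The RNA and H3K27ac samples were separate samples, and a gene next to a region is not known to be its target.

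The shares were larger at starts. A permissive-only region within 1 kb of the start went with a rise in 227 of 1052 tested genes (21.6%) and a fall in 17 (1.62%), and a control-only region there went with a fall in 114 of 280 (40.7%) and a rise in 3. The share also changed with the number of regions. With no control-only region, 8.73% of genes with 1 permissive-only region rose, 14.6% with 2, 25.7% with 3, 24.0% with 4, 37.5% of 64 genes with 5 and 44.0% of 91 genes with 6 or more. With no permissive-only region, 17.0% of genes with 1 control-only region fell, 35.8% with 2, 43.6% of 55 genes with 3 and 62.5% of 72 genes with 4 or more. Read from the RNA side, 65.2% of the 716 genes that rose had a permissive-only region nearest to them and 9.92% a control-only one, and of the 906 that fell 30.2% and 51.4%. Genes not called had 31.2% and 15.8%.

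**Figure D5:**
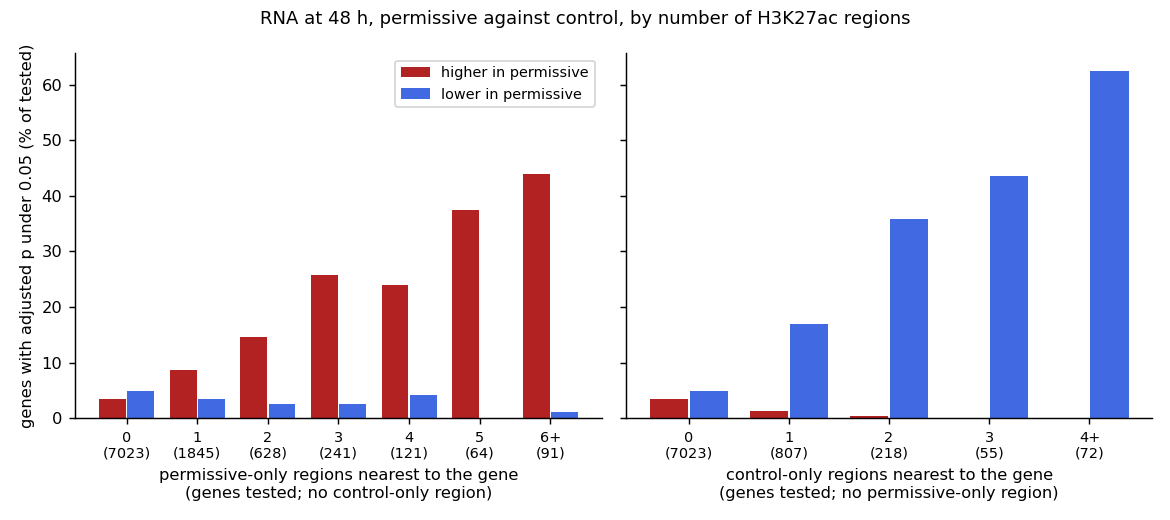
Percent of tested genes whose RNA was higher (red) or lower (blue) in permissive than in control cells (edgeR adjusted p under 0.05), by the number of permissive-only regions (left) or control-only regions (right) nearest to the gene, with the other class absent and the number of genes tested in brackets. The red share goes from 3.37% with none to 44.0% with 6 or more permissive-only regions, and the blue share from 4.96% to 62.5% with 4 or more control-only regions.

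RNA levels of genes shown above were as follows. Atoh1 was at 3.55 and 2.28 CPM in control and 804, 1008 and 635 CPM in permissive libraries, a rise of 8.09 ± 0.68 (log2, SE; edgeR adjusted p = 3.17e-05) in a gene that the sort selects. Pou4f3 was at 7.29 and 11.4 against 2174, 2845 and 2268 CPM, and Myo7a at 6.17 and 16.5 against 279, 374 and 305 CPM. Barhl1 and Dll1 were at 0 in both control libraries (up to 0.561 and 0.856 CPM at 3 counts) and at 188 to 220 and 83.7 to 103 CPM in permissive libraries. Fabp7 was at 109 and 58.5 CPM in control and 0, 0.669 and 0.404 CPM in permissive libraries. Hes1 was at 41.9 and 35.9 against 4.13, 2.68 and 1.62 CPM, and Hey1 at 1249 and 375 against 34.9, 6.02 and 15.4 CPM. Each of these genes was called by edgeR, where 5.86% of all tested protein-coding genes rose and 7.41% fell.

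Regions in all 4 lists allowed a comparison of fold enrichment. The groups overlapped in most of the 9235 regions. Both permissive values lay above both control values in 1873 (20.3%) and below in 798 (8.64%), and the median ratio of summed permissive to summed control values was 1.27. Median fold enrichments in these regions were 4.56 and 5.14 in the control lists and 8.27 and 3.98 in permissive lists 1 and 2. By this measure permissive list 1 lay above both control lists and permissive list 2 below both, so the ratio is not shared by the permissive lists. The 4 regions with the highest ratio among those without overlap lay near Akr1d1, Atpaf2, Laptm5 and Atp2a2. The Atpaf2 region, chr11:60390427-60394676, lies in Drc3, which encodes a regulator of axonemal dynein, and had fold enrichments of 3.04 and 3.60 in control against 31.8 and 8.77 in permissive. Drc3 RNA was at 1.12 and 2.00 against 129, 195 and 96.6 CPM. Of the 4 regions with the lowest ratio, 3 lay between positions 2999822 and 3023035 of chromosome 9, close to the start of the assembled sequence and at least 312196 bases from the nearest start, and 1 lay at chr10:22142152-22143135. The highest fold enrichments of any peak were 16284 and 16967 in the control lists and 2683 and 5952 in the permissive lists.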

How the data were processed

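H3K27ac CUT&RUN and ATAC peak lists and RNA counts of cells sorted from mouse cochleae at 48 h were used. Per the submitters' processing notes, the authors used Bowtie2, MACS2, UMI-tools, STAR, RSEM and the build mm10, without versions. The deposited H3K27ac lists were called per sample and give each peak's fold enrichment over local background, a linear ratio, with −log10 p and −log10 q values by the authors. The deposited RNA values are each gene's expected count, made by the authors with STAR and RSEM per the submitters' processing notes, and were rounded here.

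Peaks of the 4 H3K27ac lists were merged where they shared 1 base or more, and each region was given the highest fold enrichment of each list. The nearest of 21631 protein-coding genes came from RefSeq (GRCm38.p6), where 4357 genes had no strand and both ends were used. RNA was tested in edgeR 4.0.16 (R 4.3.3) by the quasi-likelihood test with TMM scaling and filterByExpr, over all 3 groups at 48 h, with Benjamini-Hochberg adjustment over 13411 genes. The RNA libraries, 2 control, 3 nonpermissive and 3 permissive, held 2165338 to 4896374 counts, and 3 counts in a library equal 0.561 to 1.71 CPM. Intervals and motif searches were written in Python 3.11.15 with pandas 2.3.3 and NumPy 2.4.6 and, like the RNA fit, tested on simulated data. Motifs were searched in the 250 bases before the start of 17274 genes.

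Genes in the text were the members always shown, those with the most regions of a class in each list, the genes with the most regions in the annotation, and the genes nearest to the strongest and widest regions. The neuronal and Schwann cell markers other than Nefm were named after their values were seen. The members and gene lists were chosen with earlier results of these data known. Peaks left out by a threshold, other lengths of list, DESeq2 1.42.0, other scalings and the omission of single samples were tried as alternatives. The labels do not say that replicates are separate animals, so p-values may reflect technical spread alone. The samples at 24 h were not used. Some results are not reported here.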

Additional observations from a re-analysis of the deposited data

How the results depend on the processing

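Counts of regions depended on what counted as a peak. With peaks of −log10 q of at least 5 there were 983 permissive-only, 495 control-only and 750 all-list regions, and with equal-length lists 6000 permissive-only regions. Where a list had to cover at least 50% of a region there were 5124 permissive-only and 971 all-list regions. Leaving out each H3K27ac list in turn gave 11571 to 82717 permissive-only, 5306 to 27441 control-only and 9540 to 14253 all-list regions.

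For genes near the regions, limiting regions to 50 kb gave 40 genes near control-only regions that rose, and limiting them to 1 kb gave 227 and 17 genes that rose and fell near permissive-only and 3 and 114 near control-only regions. DESeq2 gave 107 that rose near control-only regions. Leaving out each RNA library gave 276 to 435 and 166 to 279 genes that rose and fell near permissive-only regions, and 31 to 72 and 286 to 447 near control-only regions. Alternatives chosen after seeing the data were these: −log10 q of at least 5 gave 122, 33, 10 and 119 genes in the same order, and leaving out each H3K27ac list gave 491 to 630, 336 to 769, 78 to 284 and 509 to 752. Within those ranges, genes that fell near permissive-only regions numbered 639 without permissive list 2, genes that rose near control-only regions 144 without permissive list 1 and 282 without control list 2, and genes that fell near them 744 without control list 2. The cause of these changes was not tested. The order of the classes turned: 6000 permissive-only against 6089 control-only regions with equal-length lists, and 11571 against 26245 without control list 1. Near permissive-only regions fallen genes outnumbered risen ones without permissive list 1 (769 against 625) and without permissive list 2 (639 against 630). Of 63 named genes called in RNA, 49 kept their call under all 10 RNA alternatives, and 14 lost it under at least 1 (Hey2, Myo3b, Dll4, Syt1, Epha7, Rorb, Ccn1, Fosb, Cdk6, Laptm5, Atp1b2, Kcnn3, Spi1 and Atpaf2), with 0 reversed. Across all genes DESeq2 called 1117 that rose and 1243 that fell, against 767 and 976.

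The replicate block in the RNA fit gave 557, 311, 96 and 519 genes in the same order. Among named genes Rorb lost its call under the block, and Rfx3, Ikzf2, Sall3, Klf6, Ccne1, Tekt1, Pgk1, Lum, Mbp and Six2 gained one. Only 2 pairs of control and permissive libraries share a number (r = 0.39 and 0.08 between their deviations), one of them low, so the numbers were not read as pairs of these groups, although the 3 same-numbered permissive and nonpermissive pairs gave r = 0.42, 0.11 and 0.11. Sequence at regions away from starts was not searched. Depth of the peak lists is unknown, and a region without a peak may lie below the caller's threshold.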
